A study of Mus musculus with 23 samples.

Results

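The expression of 10 genes of the Notch pathway was followed across 23 murine pancreatic ductal adenocarcinoma (PDAC) cell lines. The genes were the ligands Jag1, Jag2 and Dll1, the receptors Notch1, Notch2, Notch3 and Notch4, and the targets Hes1, Hey1 and Heyl, 10 of 18193 genes with a probe set of their own on the array. They were chosen by name as receptors, ligands and targets of the pathway, with earlier results of these data known. The array measured them with 20 probe sets, and each gene is given by the probe set with the highest mean over the lines, with the others as a check. All 10 entered every comparison, since no filter on dim signals was applied.

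Notch receptors are single-pass membrane proteins that bind Jagged and Delta-like ligands on a neighbouring cell. Ligand binding leads to cleavage by an ADAM protease and then by gamma-secretase, and the released intracellular domain joins the DNA-binding protein RBPJ and a Mastermind coactivator in the nucleus to switch on genes such as Hes1 and Hey1. In the developing pancreas Notch signalling and Hes1 hold progenitor cells undifferentiated, and in the adult organ the pathway is known from acinar-to-ductal metaplasia. Hes and Hey proteins are basic helix-loop-helix repressors of transcription.

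RNA of untreated, low passage cultures was hybridised to 1 Affymetrix GeneChip array of the mouse genome per line, and signals are on the log2 scale as deposited, so that a difference of 1 is a doubling. There were 14 mice behind the 23 lines, and more than 1 line was made from 5 of them. The study's table of lines gives 6 lines, of 4 mice, an LSL-p53R172H allele, a Cre-activated mutant copy of Trp53 (PPT-3107, PPT-5193, ASC-5193, PPT-5486, PPT-6051 and B-6051). It gives 7 lines of 7 mice none (PPT-3250, PPT-5320, PPT-5671, PPT-5748, PPT-16992, PPT-17728 and ASC-53909), and it does not list 10 lines of 3 further mice, whose numbers end the names HEP-5123, PPT-15272 and PPT-53631. All 11 listed mice carried a Cre driver that is active in pancreatic progenitor cells, Ptf1aCre in 9 mice and Pdx1-Cre in the mice of PPT-6051 and PPT-3250. Reporter alleles were also listed: LSL-PCNA IRES-fLuc for PPT-5486 and PPT-5320, LSL-R26Tva-lacZ for PPT-16992, PPT-17728 and ASC-53909, and LSL-R26Tva-lacZ with LSL-PCNA ATG-fLuc for PPT-3250 and PPT-5671. By viability after treatment with Bez235, a dual PI3K and mTor inhibitor, 9 lines had an IC50 above the study's cutoff and 14 below it.

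The state of epithelial-mesenchymal transition (EMT) is not in the labels and was read from the arrays. A score of 7 mesenchymal minus 8 epithelial marker genes, none of them a Notch gene, was split at its widest gap. This put 6 lines of 6 mice in a mesenchymal-like state, with scores of 1.85 to 2.32 (ASC-5193, PPT-16992, ASC-53909, PPT-5320, PPT-17728 and PPT-3250), and 17 lines of 9 mice in an epithelial-like state, with scores of -2.73 to 0.6. These are lines grouped by measured markers and not groups of the study. Cdh1, the epithelial cadherin, read 2.22 to 6.48 in the mesenchymal-like lines and 10.23 to 11.81 in the epithelial-like lines. Prrx1, a mesenchymal homeobox factor, read 9.23 to 10.79 in the mesenchymal-like lines and 1.91 to 8.55 in the epithelial-like lines. Both are markers of the score, so their separation restates the split and is no separate support for it. Krt19, a ductal keratin, was the only other marker without overlap, and the ranges of the 12 remaining markers overlapped between the states. State and allele were not balanced: the mesenchymal-like lines comprised 1 line with the R172H allele and 5 with no listed allele, against 5 with R172H, 2 with no listed allele and 10 not listed among the epithelial-like lines. Lines named PPT were read as primary tumour lines and the rest as lines of other sites. By this reading 4 mesenchymal-like lines were primary and 2 were of other sites, against 8 and 9 among the epithelial-like lines. The array medians lay between 3.58 and 3.89 in all lines. Of 9 markers of other cells, Ptprc of leukocytes, Pecam1 and Cdh5 of endothelium, and Cpa1 and Pnliprp1 of acinar cells were below the array median in every line. The other 4 were not, with highest values of 7.37 for Cd68 and 8.54 for Lyz2 of leukocytes, 4.78 for Kdr of endothelium and 8.98 for Cela1 of acinar cells. The mean of the 3 leukocyte markers was 3.17 to 5.32 in mesenchymal-like lines and 3.05 to 4.84 in epithelial-like lines, that of the 3 endothelial markers 2.77 to 2.91 and 2.78 to 3.47, and that of the 3 acinar markers 2.82 to 4.32 and 2.65 to 4.64, each in the same order. In bulk RNA, fewer cells of a type and less RNA per cell cannot be told apart.

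Of the 10 members, 8 varied more from line to line than the typical probe set, whose median SD was 0.28 on the log2 scale. Dll1, a Delta-like ligand, had the widest spread by SD, 1.16, and ranged between 3.53 in PPT-3250 and 7.53 in HEP2-53631, a 16.0-fold span. Jag1, the Jagged ligand that is best known from bile duct and vessel development, ranged between 6.99 in PPT-17728 and 10.73 in PPT-3107 (SD 0.92). Notch4 (SD 0.25) and Heyl (SD 0.23) varied least. Notch4, known from endothelium, was below the array median in all 23 lines, so every difference between lines in it is one of dim signals. Notch3, known from vascular smooth muscle, was above the array median in 3 of 23 lines only. Notch1 and Notch2, the receptors best studied in the pancreas, were above it in all 23 lines, as were Jag1, Jag2 and Hes1, while Dll1 was above it in 22, Heyl in 18 and Hey1 in 16.

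**Figure D1:**
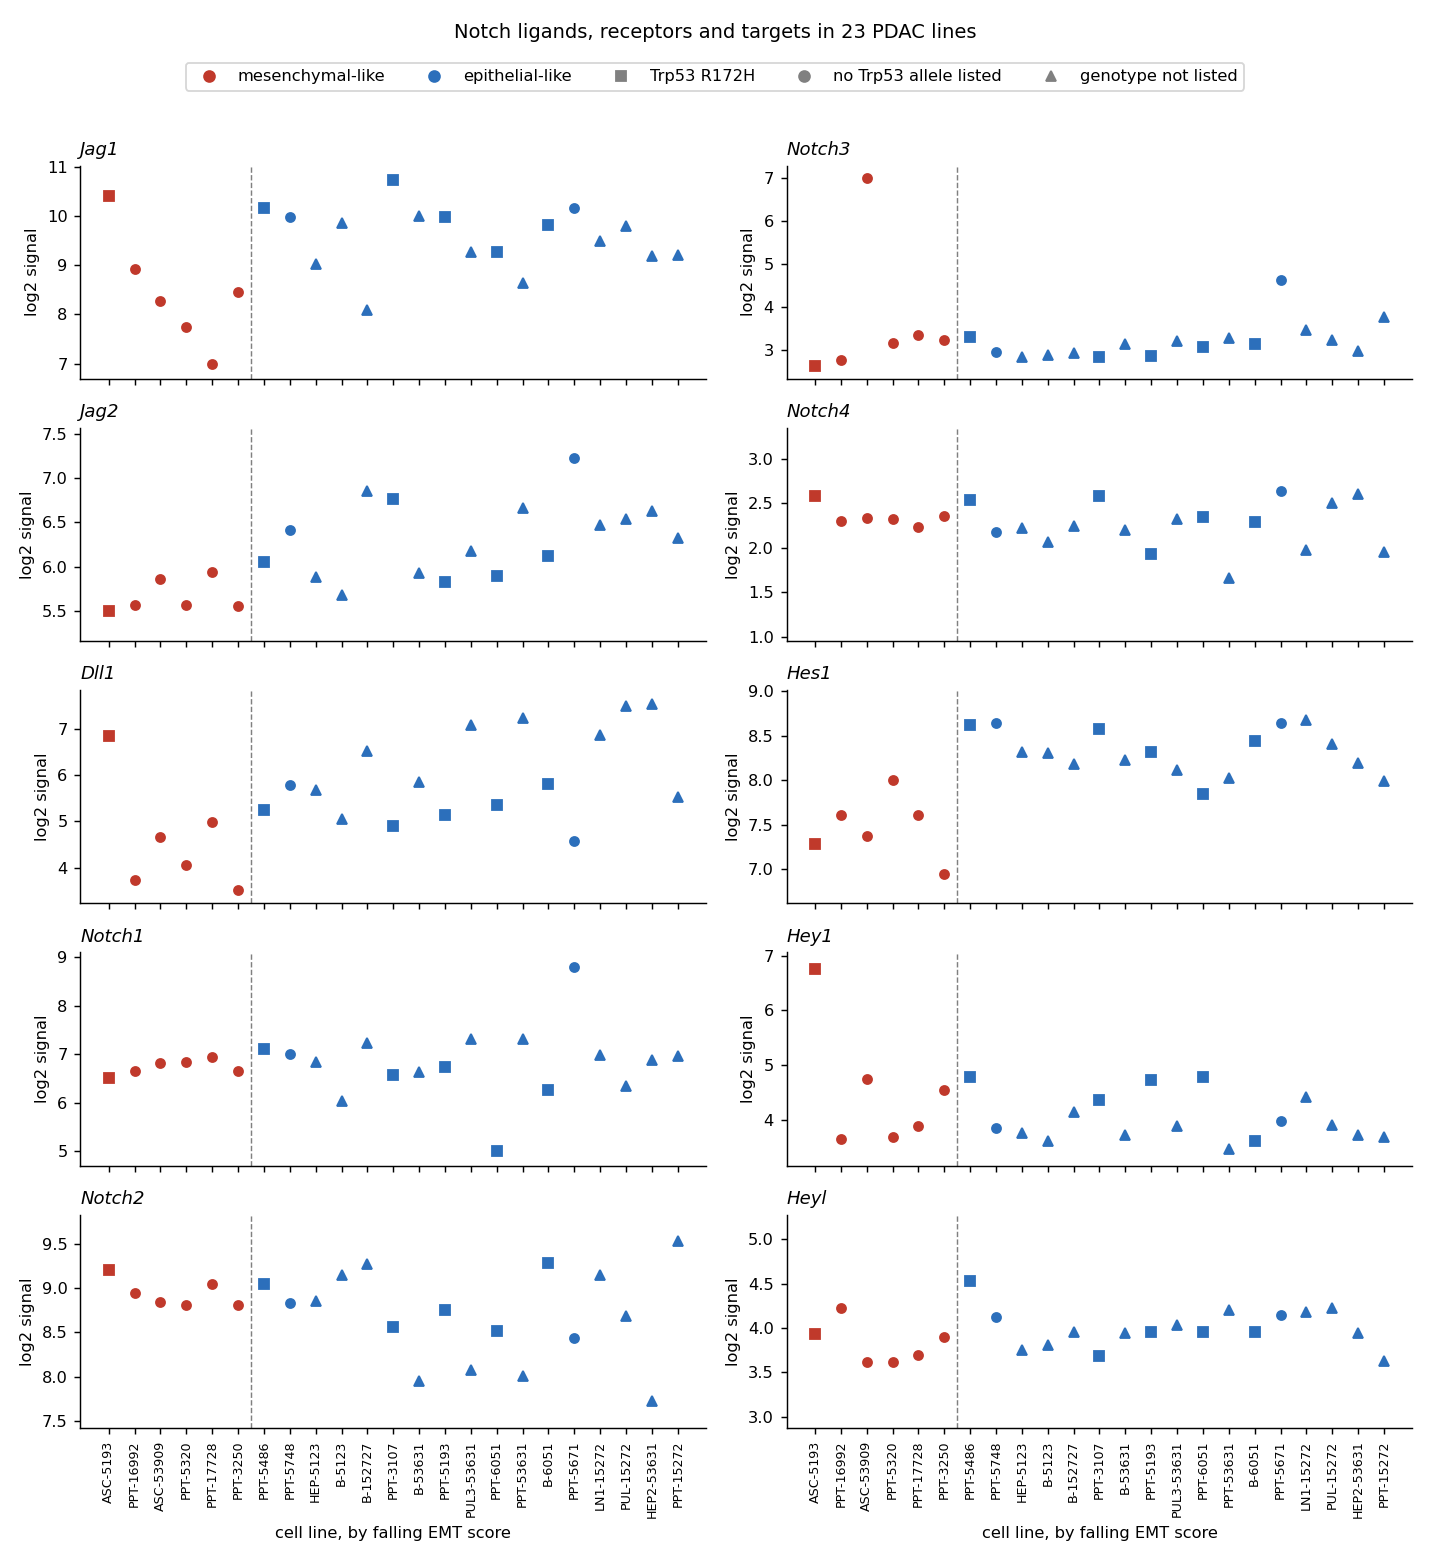
Log2 signal of each member (y axis, a separate range per gene) in each of the 23 lines (x axis, ordered by falling EMT score, with the dashed line between the states). Colours give the EMT state and symbols the Trp53 allele, and each point is 1 array. Hes1 lies below every epithelial-like line in all mesenchymal-like lines but PPT-5320, and single lines stand out for Notch3 (ASC-53909, 6.99), Notch1 (PPT-5671, 8.80) and Hey1 (ASC-5193, 6.76).

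Notch3, Notch1 and Hey1 each had a single line far from the rest. Notch3 read 6.99 in ASC-53909, against 2.64 to 3.35 in the other mesenchymal-like lines and 2.84 to 4.63 in the epithelial-like lines. Its second probe set was highest in the same line, at 4.67. Notch1 read 8.80 in PPT-5671 and 5.00 in PPT-6051, and all remaining lines lay between 6.03 and 7.32. On the other Notch1 probe set PPT-5671 was again highest, at 6.37. PPT-6051 read 4.85 there and was not the lowest line, which was ASC-5193, at 4.31. PPT-5671 also had the next highest Notch3, at 4.63, but read only 2.71 on the second Notch3 probe set. Hey1 read 6.76 in ASC-5193 and 3.46 to 4.79 in the remaining lines. Each of these values rests on 1 array.

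Lines of 1 mouse were alike in some members and apart in others. Notch2 read 7.72, 7.95, 8.01 and 8.07 in the 4 lines of the PPT-53631 mouse and at least 8.44 in every other line. Hes1 spanned 0.20 within the same mouse and 0.01 between HEP-5123 and B-5123, which read 8.32 and 8.31. Dll1 spanned 1.68 within the PPT-53631 mouse and 1.95 within the PPT-15272 mouse. ASC-5193, mesenchymal-like, and PPT-5193, epithelial-like, came from 1 mouse and cross the states. They also differ in site, PPT-5193 being read as the primary tumour line, and in Bez235 group. State, site and Bez235 group cannot be told apart in this pair. Within this pair Hey1 read 6.76 in ASC-5193 and 4.72 in PPT-5193, Dll1 6.83 and 5.13, and Jag1 10.40 and 9.98 in the same order, all higher in the mesenchymal-like line. Hes1 read 7.28 in ASC-5193 and 8.32 in PPT-5193, and Jag2 5.50 and 5.83, both lower in the mesenchymal-like line. With 1 array per line these differences have no error.

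The largest set of differences among the members was found between the EMT states. Of the 10 members, 3 were lower in mesenchymal-like lines and none was higher: the target Hes1 and the ligands Jag2 and Jag1. Over all 45037 probe sets tested, limma called 2973 higher (6.6%) and 2861 lower (6.35%) at an adjusted p under 0.05. With only the probe sets brighter than the median tested, it called 2583 higher and 2612 lower, a larger share. Each gene is given here by its brightest probe set, so the share over all probe sets is a low yardstick. The median log2 fold change was -0.13 over the members and -0.01 over all probe sets.

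Hes1, the main transcriptional target of Notch receptors in many tissues, read 6.95, 7.28, 7.37, 7.61, 7.61 and 8.0 in the mesenchymal-like lines, against a lowest value of 7.85, a median of 8.32 and a highest of 8.68 in the epithelial-like lines. All mesenchymal-like lines but PPT-5320 lay below every epithelial-like line. The means were 7.47 ± 0.36 (SD, n = 6) in mesenchymal-like lines and 8.33 ± 0.25 (SD, n = 17) in epithelial-like lines, a log2 fold change of -0.86 (SE 0.13, limma's adjusted p = 9.8e-05), or 1.81-fold lower. Hes1 was called whichever single mouse or mesenchymal-like line was left out, with log2 fold changes between -0.96 and -0.75. It was also called among the lines with no listed Trp53 allele alone, 5 mesenchymal-like against 2 epithelial-like, where its log2 fold change was -1.13, that of Jag2 -1.12 and that of Jag1 -2.0, each called (limma's adjusted p between 0.0375 and 0.0496). Lines of 1 mouse entered the fit as separate lines, and with the mouse as a random block the same 3 members were called. With the mouse as a fixed block, a contrast that rests on ASC-5193 and PPT-5193 alone, Hes1 was -1.04, Jag2 -0.33 and Jag1 0.42, none of them called by limma.

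Jag2, a Jagged ligand, read 5.50, 5.56, 5.57, 5.57, 5.86 and 5.94 in the mesenchymal-like lines, against a lowest value of 5.68, a median of 6.33 and a highest of 7.23 in the epithelial-like lines. The log2 fold change was -0.66 (SE 0.18, limma's adjusted p = 0.0147), and 4 of 6 mesenchymal-like lines lay below all epithelial-like lines. The other Jag2 probe set gave a larger difference of -2.08 (SE 0.37, limma's adjusted p = 0.000492), with means of 3.77 ± 0.44 (SD, n = 6) in mesenchymal-like lines and 5.84 ± 0.91 (SD, n = 17) in epithelial-like lines. The mean of the mesenchymal-like lines on this probe set was close to the array median, and a fold from so dim a level is imprecise. The lowest line differed between the probe sets, ASC-5193 (5.50) on the first and PPT-16992 (3.07) on the other.

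Jag1 read 6.99, 7.75, 8.27, 8.46, 8.92 and 10.40 in the mesenchymal-like lines, against a lowest value of 8.10, a median of 9.80 and a highest of 10.73 in the epithelial-like lines. The highest mesenchymal-like value belonged to ASC-5193, the only one of these lines with the R172H allele, and was exceeded by a single epithelial-like line. The log2 fold change was -1.11 (SE 0.36, limma's adjusted p = 0.0431), or 2.15-fold lower. The call was close to the threshold and was lost in 12 of the 14 fits that left out 1 mouse, with the smallest difference, -0.81, and an adjusted p by limma of 0.14 without PPT-17728. Of the other Jag1 probe sets, 1 was called (-0.55, limma's adjusted p = 0.0199) and 1 was not (-1.16, limma's adjusted p = 0.0558). The called probe set was dim, with means of 3.36 in mesenchymal-like and 3.92 in epithelial-like lines, close to the array median. The means of the probe set that was not called were 4.94 and 6.11 in the same order.

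Dll1 had the largest log2 fold change of the members, -1.34 (SE 0.46), and was not called (limma's adjusted p = 0.055). It read 3.53, 3.74, 4.05, 4.66, 4.98 and 6.83 in the mesenchymal-like lines, against a lowest value of 4.57, a median of 5.79 and a highest of 7.53 in the epithelial-like lines. ASC-5193 again held the highest mesenchymal-like value, and leaving this line out gave a log2 fold change of -1.78 with a limma adjusted p of 0.00861. Dll1 was called in 4 of the 14 fits that left out 1 mouse and not in the other 10, among them that without the PPT-53631 mouse (-1.05, limma's adjusted p = 0.15). It was also not called with the mouse as a random block (-1.10, limma's adjusted p = 0.134). The 5 mesenchymal-like lines with no listed Trp53 allele read 6.99 to 8.92 for Jag1 and 3.53 to 4.98 for Dll1, and ASC-5193 lay above all of them in both genes.

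**Figure D2:**
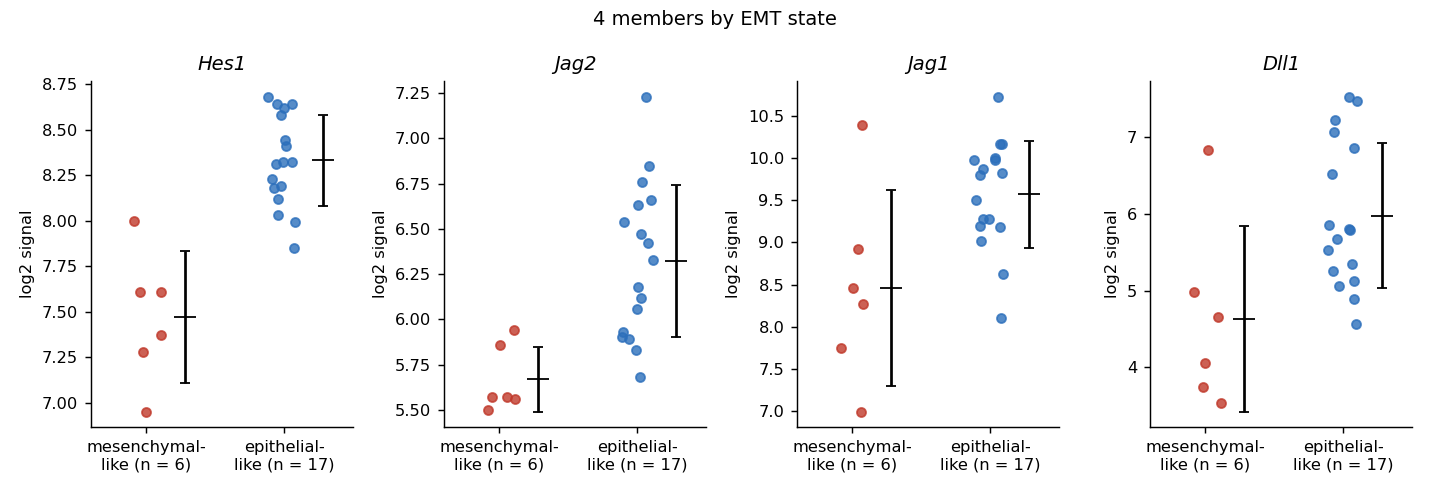
Log2 signal of Hes1, Jag2, Jag1 and Dll1 (y axis, a separate range per gene) in 6 mesenchymal-like and 17 epithelial-like lines. Points are lines, and the bar with whiskers is the mean ± SD. The states overlap in every panel, by PPT-5320 alone among mesenchymal-like lines for Hes1, and ASC-5193 (10.40 and 6.83) is the high mesenchymal-like point for Jag1 and Dll1.

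The receptors and the other targets were not called between the states. Notch1 averaged 6.73 ± 0.16 (SD, n = 6) in mesenchymal-like lines and 6.83 ± 0.76 (SD, n = 17) in epithelial-like lines, and Notch2 averaged 8.94 ± 0.16 and 8.70 ± 0.53 in the same order. Their log2 fold changes were -0.09 (SE 0.30) and 0.25 (SE 0.21). The other Notch1 probe set gave -0.51 (SE 0.18, limma's adjusted p = 0.0727), and among lines with no listed allele Notch1 was -1.12 (SE 0.41, limma's adjusted p = 0.164), with PPT-5671 as 1 of the 2 epithelial-like lines. The Notch2 value rests on the PPT-53631 mouse, without which it was 0.01. Notch3 had a log2 fold change of 0.48 (SE 0.40) that turned to -0.18 without ASC-53909, and Hey1 one of 0.52 (SE 0.31) that was 0.08 without ASC-5193. Notch4 (0.10, SE 0.12) and Heyl (-0.17, SE 0.11) differed by little. The limma adjusted p-values of these 6 members lay between 0.303 and 0.886, on their main probe sets, which does not show that the states were alike.

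Fibroblast markers moved with the state. The mean of Pdgfra, Pdgfrb and Dcn was 5.56 to 8.95 in mesenchymal-like lines and 2.34 to 8.40 in epithelial-like lines, and all 3 genes were called higher by limma, while none of the other 9 markers of leukocytes, endothelium and acinar cells was called. None of the 3 was below the array median in every line of either state. Their part in the differences of Hes1, Jag1 and Jag2 was not tested. Among epithelial-like lines PPT-5486 had the highest of these means, and without it Hes1 and Jag2 were still called, Dll1 was called (-1.39, limma's adjusted p = 0.0494) and Jag1 was not (-1.07, limma's adjusted p = 0.0527).

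Of 50 further genes of the pathway, 46 had a probe set of their own, and limma called 3 higher and 5 lower in mesenchymal-like lines. Of all probe sets 6.6% were called higher and 6.35% lower, and larger shares of the brighter probe sets. The number called higher was thus not above the background, and the called genes are described singly, not as a shift of the pathway. The median log2 fold change over the 46 genes was 0.07. Among ligands and ligand-like proteins, Dner, a transmembrane ligand known from neurons, was higher by 0.81 (SE 0.18) at a dim mean of 3.14 in mesenchymal-like lines and 2.33 in epithelial-like lines, and its other probe set was called too (0.62). Among genes of receptor cleavage, Psen2, a presenilin of the gamma-secretase complex, was lower by a log2 fold change of -1.02 (SE 0.20), with a second probe set at -0.05. Among genes of ubiquitylation and endocytosis, Numbl, a Numb-like adaptor, was higher (0.46, SE 0.14) and Dtx4, a Deltex E3 ligase, was lower (-1.09, SE 0.31), with a second probe set at -0.70 that was not called (limma's adjusted p = 0.0578). None of the 5 genes of receptor glycosylation was called.

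In the nuclear complex, Rbpj, the DNA-binding partner of the Notch intracellular domain, averaged 9.77 ± 0.29 (SD, n = 6) in mesenchymal-like lines and 8.98 ± 0.47 (SD, n = 17) in epithelial-like lines. The log2 fold change was 0.79 (SE 0.20, limma's adjusted p = 0.00985), and its 2 other probe sets were also called higher, at 0.66 and 0.86. Of the 10 other targets 9 had a negative log2 fold change, against 51.4% of all probe sets. limma called 3 of the 10 lower, against 6.35% of all probe sets and a larger share of the brighter ones. The list was not tested as a set. The 3 were Hes6 (-0.85, SE 0.15), a Hes relative known to antagonise Hes1, Nrarp (-1.29, SE 0.41), a feedback inhibitor of Notch, and Myc (-0.67, SE 0.17), a growth regulator with many other inputs. The other Hes6 probe set was called as well (-0.97), and that of Nrarp was not (-0.62, limma's adjusted p = 0.0845).

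Promoters were searched for E-boxes and RBPJ motifs. Zeb1 encodes a repressor that binds E-boxes, and it is one of the markers that set the state. It averaged 9.07 ± 0.28 (SD, n = 6) in mesenchymal-like lines and 8.04 ± 0.64 (SD, n = 17) in epithelial-like lines. RefSeq windows (GRCm38.p6) were at hand for 7 members, with 8 start sites, and the 250 bases before each start were read on both strands. The E-box CAGGTG was found in 1 of these 8 windows, at Dll1, and in 17.2% of 32851 windows of all genes. The RBPJ core motif TGGGAA was found in none of the 8 and in 21.6% of all. The windows were those of receptors and ligands, and none of Hes1, Hey1 or Heyl was among them, so no target was searched. The window of the other Dll1 start site held no match. The stretch around the Dll1 match is shown because it was the only match. It lies at chr17:15377055-15377114 on the minus strand, the motif starts at base -155, and the capitals mark the E-box.
Dll1: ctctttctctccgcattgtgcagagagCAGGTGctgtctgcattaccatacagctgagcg
A match of letters is a description, not a bound site.

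No member was called between Trp53 alleles. Over all probe sets limma called 65 higher (0.144%) and 39 lower (0.0866%) in lines with the R172H allele, a split that turned to 36 higher and 62 lower after quantile normalization. None of the 46 further pathway genes was called either. The comparison held 6 lines with R172H and 7 lines with no listed allele.

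The differences that were largest belonged to the ligands Jag1 and Dll1. Jag1 read 9.28 at its lowest, 10.07 at its median and 10.73 at its highest in R172H lines, against 6.99, 8.46 and 10.17 in lines with no listed allele. The log2 fold change was 1.42 (SE 0.47, unadjusted p = 0.00927, adjusted p = 0.219 by limma). Dll1 read 4.89, 5.30 and 6.83 in R172H lines, against 3.53, 4.57 and 5.79 in lines with no listed allele, a log2 fold change of 1.07 (SE 0.38, unadjusted p = 0.0148, adjusted p = 0.25 by limma). The groups overlapped for both genes.

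The allele groups also differed in a reporter allele and in EMT state. LSL-R26Tva-lacZ was listed for all lines with no listed Trp53 allele but PPT-5320 and PPT-5748, and for no R172H line. Its part was not tested. The 2 epithelial-like lines with no listed allele, PPT-5671 and PPT-5748, read 10.17 and 9.98 for Jag1, within the range of 9.28 to 10.73 of the 5 epithelial-like R172H lines. Within epithelial-like lines the log2 fold change was -0.08 (SE 0.34) for Jag1 and 0.10 (SE 0.35) for Dll1, and neither was called by limma. This fit, of 5 against 2 lines, was added after seeing the data. With the EMT score as a covariate over all 13 lines, the log2 fold changes were 1.02 (SE 0.50) for Jag1 and 1.14 (SE 0.45) for Dll1, against 1.42 and 1.07 without it, and were not called (limma's adjusted p = 0.332 and 0.233). The fits thus differ on how much of the difference remains once state is taken into account. The mesenchymal-like lines with no listed allele read 6.99 to 8.92 for Jag1, and ASC-5193, the mesenchymal-like R172H line, read 10.40. With a single line in that last cell, allele and state cannot be told apart there.

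**Figure D3:**
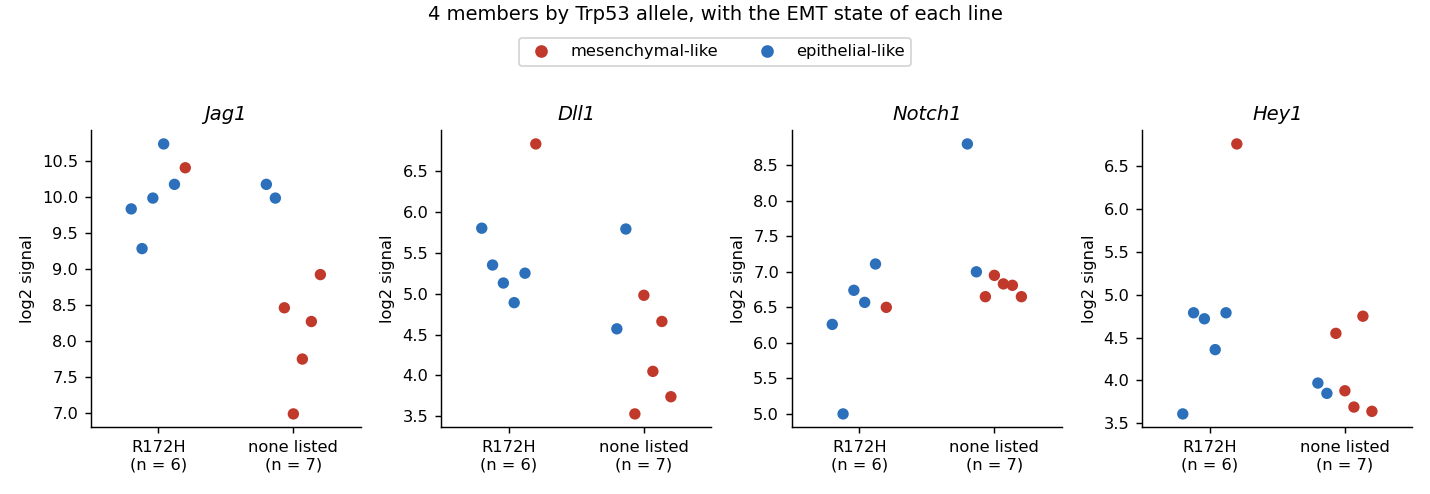
Log2 signal of Jag1, Dll1, Notch1 and Hey1 (y axis, a separate range per gene) in 6 lines with the Trp53 R172H allele and 7 lines with no listed allele. Each point is 1 line, coloured by EMT state. The low Jag1 values of the lines with no listed allele (6.99 to 8.92) all belong to mesenchymal-like lines.

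Notch1 averaged 6.36 ± 0.73 (SD, n = 6) in R172H lines and 7.10 ± 0.76 (SD, n = 7) in lines with no listed allele, with the lowest line, PPT-6051, in the first and the highest, PPT-5671, in the second. Its log2 fold change was -0.74 (SE 0.38, limma's adjusted p = 0.441), which moved to -0.45 without PPT-5671, to -0.37 without the PPT-6051 mouse, to -1.56 in epithelial-like lines and to -0.15 on the other probe set. Notch3 had one of -0.89 (SE 0.57), with ASC-53909 and PPT-5671 both among the lines with no listed allele, and of -0.37 without ASC-53909. Hey1 had one of 0.79 (SE 0.40), with ASC-5193 among the R172H lines, of 0.34 without the mouse of ASC-5193 and of 1.28 with the EMT score as a covariate. Hes1 (0.35), Jag2 (0.01), Notch2 (0.08), Notch4 (0.04) and Heyl (0.10) had smaller log2 fold changes, and Hes1 and Jag2 changed sign within epithelial-like lines (-0.28 and -0.69).

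**Figure D4:**
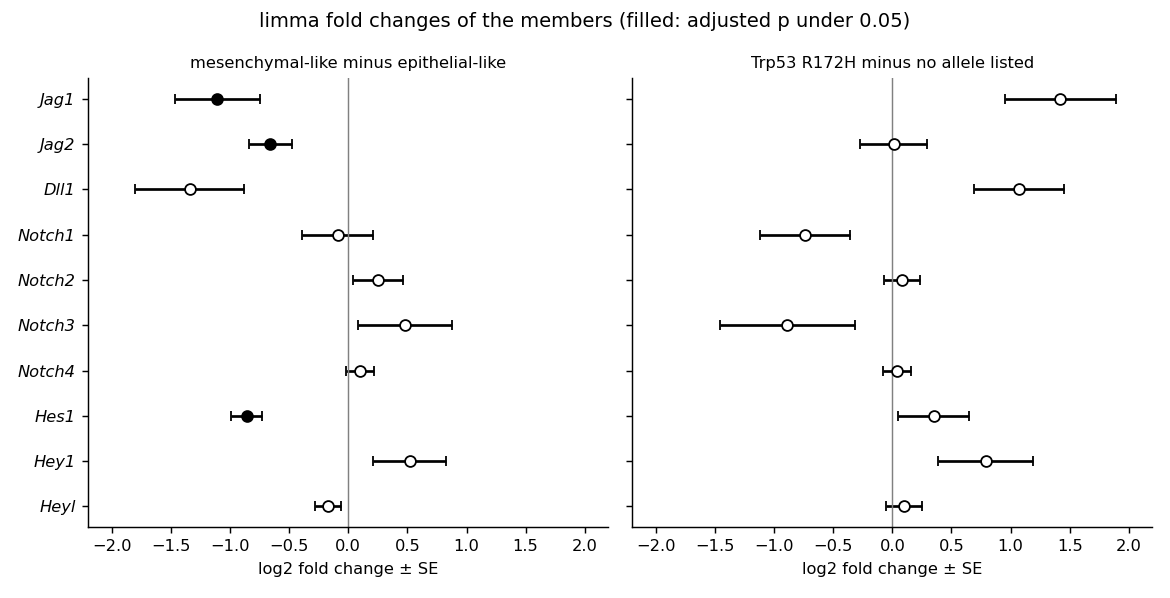
Log2 fold change of each member (x axis) with its SE from limma, for mesenchymal-like minus epithelial-like lines (left) and R172H minus no listed allele (right). Filled points passed an adjusted p of 0.05, which only Jag1, Jag2 and Hes1 did, in the left panel. Jag1 and Dll1 lie on opposite sides of 0 in the panels, which share lines.

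The study's cutoff on the Bez235 IC50, applied to the 23 lines here, separated none of the members. The study itself compared a larger set of lines and reported Efemp1 as higher in sensitive lines. The counts given here are thus not a repeat of its comparison. limma called 0 of 45037 probe sets (0.0%) between lines above and below the cutoff, with 1803 at an unadjusted p under 0.05, and again 0 with trended and robust variances. The log2 fold changes of the members, high minus low IC50, ran between -0.08 (Heyl) and 0.52 (Notch3). Notch3 averaged 3.66 ± 1.39 (SD, n = 9) in lines of high IC50 and 3.13 ± 0.20 (SD, n = 14) in lines of low IC50, with ASC-53909 in the first, and its log2 fold change was 0.11 without that line. Notch2 had the lowest unadjusted p of the members, with a log2 fold change of 0.36 (SE 0.18, p = 0.0618 by limma). This value was 0.09 without the PPT-53631 mouse, 0.22 with the mouse as a random block and 0.04 on the other probe set.

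Whether targets followed ligands or receptors was examined within each state, since the states form separate clusters. Of 42 relations, 21 per state, none passed after Benjamini-Hochberg adjustment. Over the 6 mesenchymal-like lines the smallest possible exact permutation p is 0.00278 for Spearman's rho and lower for Pearson's r. Neither is low enough for a single relation there to pass by itself, so that none passed says nothing of those relations. Hes1 and Jag1 had the lowest p among epithelial-like lines, with Pearson's r = 0.632 (permutation p = 0.0059, adjusted p = 0.248) and Spearman's rho = 0.641 (permutation p = 0.00673, adjusted p = 0.283) over 17 lines, and r = 0.637 without B-152727 and PPT-53631, the lines farthest from the Jag1 median. In the mesenchymal-like lines the same pair had r = -0.421 and rho = -0.551 over 6 lines (exact permutation p = 0.40 and 0.272). Several of the 17 epithelial-like lines share a mouse, so the p-values over them are too small. With 1 value per mouse, over 9 mice, the pair had r = 0.761 (exact permutation p = 0.0223, adjusted p = 0.469). Its rho was 0.751 (exact permutation p = 0.0241, adjusted p = 0.338), so it did not pass there either. Hey1 and Notch4 had r = 0.939 over the mesenchymal-like lines (exact permutation p = 0.0208) and rho = 0.771 (exact permutation p = 0.103), with both genes highest in ASC-5193 and Notch4 dim in all lines. Without ASC-5193 and PPT-17728, the lines farthest from the Notch4 median, r was 0.851. After quantile normalization r was 0.916 and rho 0.429 over the 6 lines, and r was 0.253 without the same lines.

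**Figure D5:**
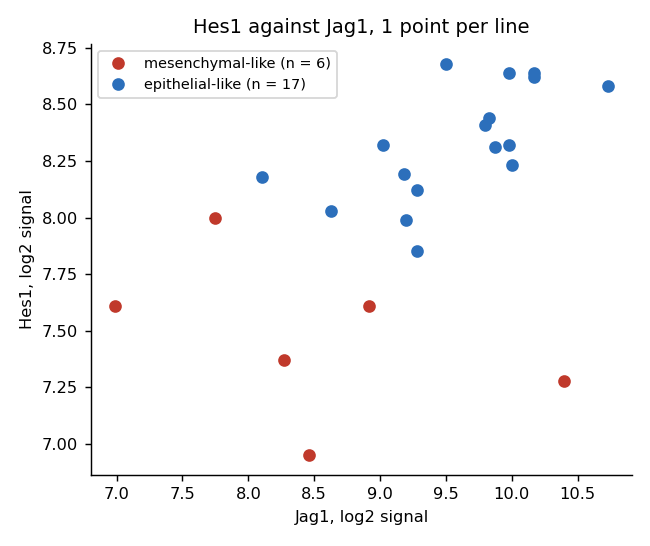
Log2 signal of Hes1 (y axis) against Jag1 (x axis), 1 point per line, coloured by EMT state. ASC-5193 combines high Jag1 (10.40) with low Hes1 (7.28), PPT-5320 is the mesenchymal-like line of highest Hes1 (8.0), and the epithelial-like lines have r = 0.632.

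The genes whose signals ran most like a member over all 23 lines are given as a description, in which the difference between the states has a share. Hes1 was most like Zfp217 (rho = 0.866), a zinc finger protein, Ctnnb1 (0.861), which encodes beta-catenin, and Senp6 (0.855), a SUMO protease. Jag1 was most like Rnf44 (0.861), Clcn5 (0.841) and the cell cycle regulator E2f3 (0.795), and Jag2 most like Fbxw9 (0.856), Elmo3 (0.854) and Slc44a3 (0.852). Dll1 was most like Lrrc38 (0.804), Irx3 (0.797) and Etv3 (0.788). Among receptors, Notch2 was most like Rhoc (0.801), Atp6v0a2 (0.792) and Chmp5 (0.778), Notch1 like Zdhhc1 (0.728), Ifnz (0.687) and Kazn (0.686), and Notch3 like Cdh15 (0.751), Stk32c (0.723) and Ankef1 (0.719). Hey1 was most like Ppt2 (0.713), Col6a3 (0.703) and Agbl3 (0.683). Notch4 was most like Tmem204 (0.814), Flad1 (0.737) and 9630013A20Rik (0.72), and Heyl like Zfhx4 (0.745), Psg18 (0.719) and Hcrtr1 (0.713). These values were like those of the other members, although Notch4 was below the array median in every line and Notch3 in most.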

How the data were processed

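RNA of 23 lines was measured on 1 array each. Values were deposited as log2 signals, normalized between arrays and summarised per probe set by the authors. RMA is named in the submitters' processing notes and VSN in the supplementary methods. The sources used here do not settle which was applied. Both scale arrays to each other, so a shift shared by most genes would be lost. The table held 45101 probe sets, 64 of them controls that entered no test, and the platform annotation gave 34945 a single symbol. Trp53 alleles and Bez235 groups were taken from the study's tables through the line names, with B-152727 read as a line of mouse 15272. An allele listed for the mice is not reported here. Precision is limited by the number of arrays, since each line was hybridised once and arrays give no counts.

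Linear models were fitted to 45037 probe sets in limma 3.58.1 (R 4.3.3), with moderated variances, and p-values were adjusted over them by Benjamini-Hochberg at a threshold of 0.05. The EMT score is the mean z of the mesenchymal minus the epithelial markers, split at the widest gap with at least 4 lines a side. Relations were tested in Python 3.11.15 with SciPy 1.17.1 by two-sided permutation, of 100000 resamples or of all permutations for 6 lines or 9 mice. Both kinds of test were first tested on simulated data. Named genes were all 10 members, up to 4 called genes per role of the pathway list, the 3 genes of highest Spearman rho to each member, and the EMT markers. Members and lists were chosen with earlier results of these data known. Centred signals correlated at a median r of 0.417 over 15 pairs of lines from 1 mouse and -0.085 over 238 other pairs, and the mouse was therefore tried as a block. Other alternatives were other probe sets, quantile normalization, trended variances, a filter on dim probe sets, 1 value per mouse, leaving out each mouse, and, added after seeing the data, leaving out single lines and fits within an allele or a state.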

Additional observations from a re-analysis of the deposited data

Results flagged for a closer look

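A single line stood far from the others in 11 of 40 sets of a member and a group of 6 to 9 lines, by the size of its gap relative to the range. The rule's nominal rate of about 1 in 20 holds for independent, normally distributed values. The share flagged over all probe sets was not computed, so the count does not set the members apart from other genes. The sets share lines, and 4 lines account for all 11 flags. ASC-53909 was the outlying line for Notch3, at 6.99, among mesenchymal-like lines and among lines of high IC50. ASC-5193 was the outlying line for Hey1, at 6.76, among mesenchymal-like, R172H and high IC50 lines, and for Notch4, at 2.58, among mesenchymal-like lines. PPT-5671 was the outlying line for Notch1, at 8.80, among lines with no listed allele and among lines of high IC50, and among lines with no listed allele also for Notch2 (the lowest, 8.44) and Notch4 (2.64). PPT-5486 was the highest R172H line for Heyl, at 4.53. The Notch4 values lie below the array medians.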

How the results depend on the processing

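Under all alternatives run, Hes1 and Jag2 stayed lower in mesenchymal-like lines and lost their calls only with the mouse as a fixed block, a replicate block that rests on the pair ASC-5193 and PPT-5193 alone. In it limma called 1027 probe sets higher and 656 lower and 1 member, Hey1 (2.04), with Jag2 at -0.33 and Hes1 at -1.04, while Jag1 (0.42), Dll1 (1.70) and Notch3 (-0.24) changed sign. Among lines with no listed allele 1371 probe sets were higher and 1172 lower, and Notch4 was -0.10. Leaving out a mouse or line gave 2042 to 3282 higher, 2077 to 3000 lower and 2 to 4 members called, with ranges of -1.49 to -0.81 for Jag1, -0.25 to 0.03 for Notch1 and -0.18 to 0.69 for Notch3. Dll1 was called with only the brighter probe sets tested (limma's adjusted p = 0.0371) and with the EMT score as a continuous measure (limma's adjusted p = 0.0416), in which Jag1 was not (limma's adjusted p = 0.194). Other probe sets gave -0.51 for Notch1, -0.05 for Notch2, -0.04 for Notch4 and 0.02 for Heyl. Counts by Trp53 allele rest on single mice: leaving out each gave 1 to 95 higher and 1 to 67 lower, both lowest without the mouse of PPT-6051. They were 25 and 13 with the mouse as a random block, 36 and 62 after quantile normalization, 31 and 22 with trended and robust variances, 133 and 60 with the EMT score as a covariate, 8 and 4 with 1 value per mouse, 1 and 2 in Ptf1aCre lines, and 187 and 83 in epithelial-like lines, and no member was called in any of them. Changes of sign were found for Jag2 with mice left out (-0.14 to 0.21), after quantile normalization (-0.10), with the EMT score (-0.43), in Ptf1aCre lines (-0.06) and in epithelial-like lines (-0.69), Hes1 with the EMT score (-0.08) and in epithelial-like lines (-0.28), Notch2 after quantile normalization (-0.0036), Notch4 with mice left out (-0.00057 to 0.10) and in epithelial-like lines (-0.07), Heyl with mice left out (-0.01 to 0.16), in epithelial-like lines (-0.12) and on another probe set (-0.15), and for Jag1, 1.42 over all lines, in epithelial-like lines (-0.08). By Bez235 group Heyl was 0.19 and 0.05 on other probe sets. The causes were not tested. Few lines per group, 1 array each, and shared mice limit every comparison.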
